A study of Mus musculus with 2 samples.

Results

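The 10 genes described here encode membrane carriers that bring glucose, amino acids, nucleosides and a phospholipid form of fatty acid into cells or across vessel walls. They were chosen by symbol, and each of Slc2a1, Slc2a3, Slc7a1, Slc7a5, Slc1a5, Slc38a2, Slc38a3, Slc38a5, Slc29a1 and Mfsd2a matched 1 of the 32287 features of the deposited matrices. The samples were 2 droplet single-cell libraries, R1 and R2, of leptomeninges, the inner membranes that cover the brain, peeled off the hemispheres of 3-month-old mice. Both libraries carried the Pdgfra-H2BGFP reporter, in which a nuclear green fluorescent protein is read out from the Pdgfra locus, and both sexes were used. No treatment or second genotype is named, so R1 and R2 formed 1 group, and what is compared is cell classes inside each of them.

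Endothelial cells of brain vessels are joined by tight junctions, so polar nutrients reach the tissue mainly through carriers in their membranes. Slc2a1 (GLUT1) is the main glucose carrier of that barrier, Slc7a5 (LAT1) exchanges large neutral amino acids such as leucine, and Mfsd2a moves lysophospholipids that carry docosahexaenoic acid. The SLC38 family and Slc1a5 move glutamine and other small neutral amino acids together with sodium, and the leptomeningeal fibroblasts and the arachnoid barrier lie outside these vessels, between the brain surface and the dura.

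The matrices list 7276 barcodes for R1 and 6743 for R2, with total counts of 14586462 and 12359040 UMIs (unique molecular identifiers, each standing for a captured transcript). After the filters 2985 and 3035 cells were kept, with 7629128 and 6270141 UMIs and medians of 1643 and 1249 UMIs per cell. Separate animals are not stated for R1 and R2. With the library as a block, p-values rest on how far class differences varied between these 2 libraries, which may be technical. That spread was estimated over all classes of a fit and drawn towards the spread of other genes. A small p-value therefore does not mean that the 2 libraries gave a similar difference for that gene.

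The libraries share barcodes, and why they do was not tested. Of 93 barcode sequences present in both, 74 were kept in both, and 72 of these pairs fell in the same cluster. All 60 venous-like endothelial barcodes of R1 and all 60 of R2 are the same 60 sequences, and a further 6 pairs were endothelial-like. In the venous-like cluster each of the 60 barcodes of R1 correlated best with its own sequence in R2 (median r 0.68, against 0.40 with other sequences, over 2269 genes), and its UMI total in R2 was 0.943 to 1.25 times that in R1. The summed counts of that cluster differed between the libraries by less than sampling noise, with a chi-square of 0.65 per gene, against 2.51 in the capillary-like and 2.25 in the arterial-like cells without shared barcodes. The venous-like levels are therefore given as values with no test. In the fits with all kept barcodes, however, the shared barcodes of R1 and R2 entered as separate samples. Their part in those p-values was not tested. The endothelial results of the 10 carriers are given with and without the shared barcodes, and those of related genes with all kept barcodes only.

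Cells were clustered without the 10 carriers and without 50 related carrier and hexokinase genes, and clusters were named "-like" from marker lists. Endothelial-like cells (329 in R1 and 317 in R2, or 263 and 250 without shared barcodes) held UMIs of all 8 endothelial markers, among them Cldn5 and Pecam1. The fibroblast layers were pial and perivascular (179 and 106 cells), inner arachnoid (83 and 86) and dural border (576 and 305). Arachnoid barrier-like cells were few (41 and 34), and 2 of their 7 markers, Dsp and Krt18, were at 0 in both libraries. The myeloid classes were border macrophage-like (533 and 676 cells) and microglia-like (187 and 99 cells). Other cells' markers were present in these sums: mural markers stood at 7295 and 6116 CPM (counts per 1e6 UMIs of the class) in pial and perivascular cells and at 2044 and 1409 CPM in endothelial-like cells without shared barcodes, and erythroid genes at 30438 CPM in the microglia-like cells of R1 against 1836 CPM in R2. Their part in the results was not tested.

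For each library and class the raw counts were added up, and these sums were compared with edgeR's quasi-likelihood test, with the library as a block and Benjamini-Hochberg adjustment over all genes tested. A difference is said to pass when its adjusted p was below 0.05 and both libraries had its sign. A side of several classes is the mean of their log values, so each class weighs the same. CPM from 3' UMI counts compares 1 gene between classes and is not used to rank genes against each other.

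Of the classes compared, endothelial-like cells had the highest level of 5 of the 10 carriers: Slc2a1, Slc7a5, Slc7a1, Slc38a5 and Mfsd2a were all far higher there than in fibroblast layers and myeloid cells. Slc38a2 and Slc1a5 were instead higher in the fibroblast layers, and Slc29a1 was highest in pial and perivascular cells and macrophages. Against the fibroblast layers 9 carriers could be tested, of which 6 were higher in endothelial-like cells and 2 lower. Over all 10607 genes tested there, 47.6% passed, 26.0% as higher and 21.6% as lower, and the median log2 difference was 3.71 for the carriers and 0.00 for all genes. Against the myeloid classes 6 of 9 were higher and 1 lower, beside 43.3% of all genes that passed (23.5% higher and 19.8% lower). Between the fibroblast layers and the myeloid classes 4 of 9 were higher in the layers and 1 lower, beside 63.9% of all genes (33.4% higher and 30.4% lower). Without the shared barcodes 38.9% of all genes passed between endothelial-like cells and the layers, where 7 of the 9 carriers were then higher, and 47.4% against the myeloid classes, where again 7 were. Slc2a3 had too few UMIs to be tested.

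**Figure D1:**
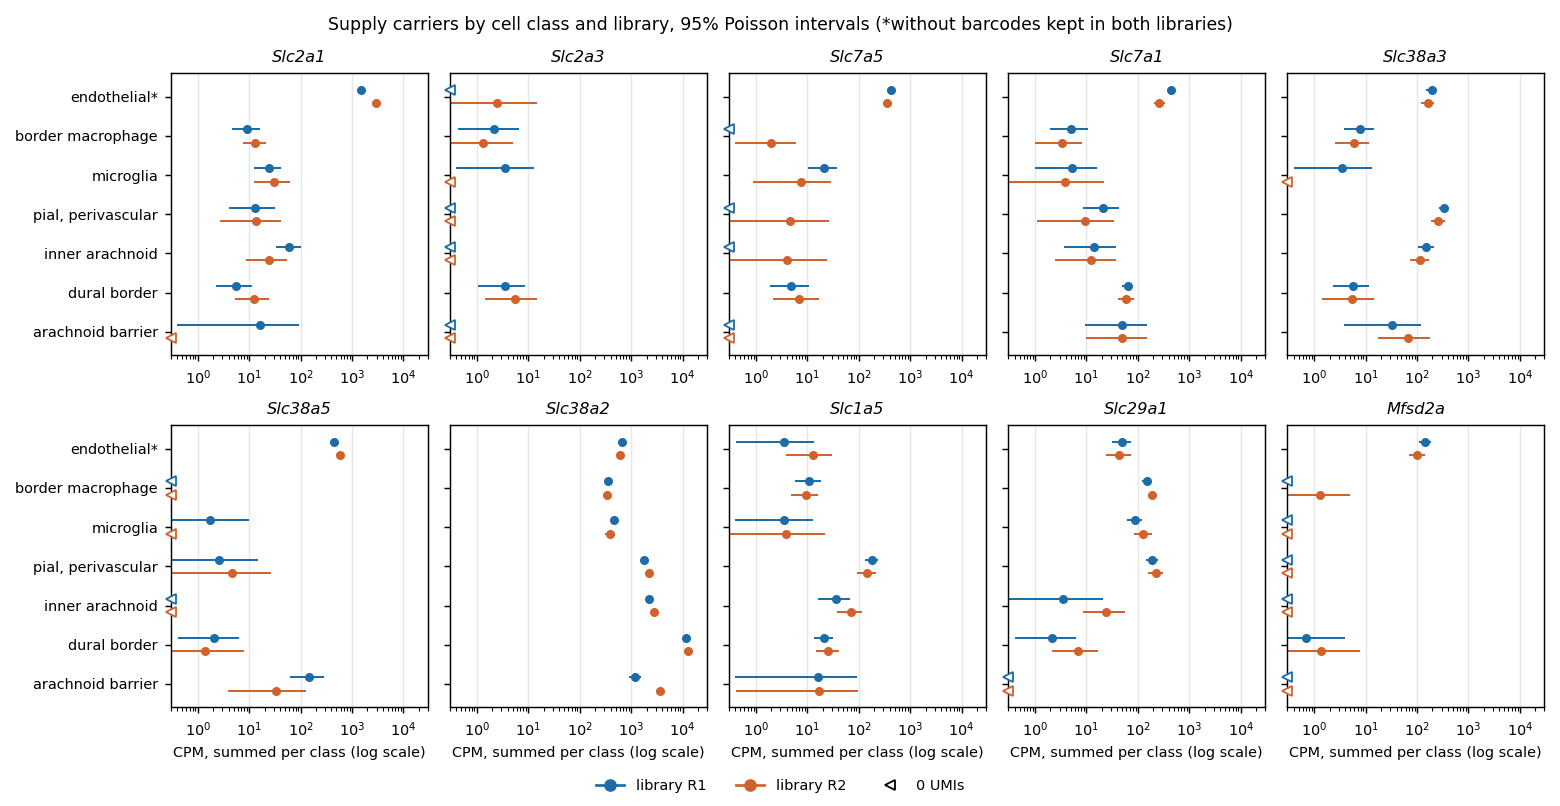
Level of each carrier in CPM (log axis) in 7 cell classes, 1 point per library with its 95% Poisson interval. Open triangles mark 0 UMIs. Slc2a1 lies between 1504 and 2877 CPM in endothelial-like cells without shared barcodes and at or below 60.1 CPM in every other class shown, while Slc38a2 reaches 11929 and 12650.5 CPM in dural border-like cells.

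Slc2a1, the GLUT1 glucose carrier, was at 1482 CPM in the endothelial-like cells of R1 and 2466 CPM in R2. Without the shared barcodes the values were 1504 and 2877 CPM (mean 2190.1 ± 970.9, SD, n = 2). The level was far above every other class compared here in both libraries, and the libraries differed from each other by more than their counting intervals. Inner arachnoid cells followed at 60.1 and 24.4 CPM, microglia-like cells at 24.3 and 30.4 CPM, and arachnoid barrier-like cells at 16.1 and 0 CPM. Pial and perivascular cells gave 12.9 and 13.9 CPM, border macrophages 9.29 and 13.2 CPM and the dural border 5.59 and 12.2 CPM. Below the endothelial class, neighbours in this order had overlapping Poisson intervals in both libraries.

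The fitted log2 difference of Slc2a1 was 6.83 ± 0.17 (SE) against the fibroblast layers (adjusted p = 8.6e-77) and 6.60 ± 0.18 against the myeloid classes (adjusted p = 4.1e-72). Without the shared barcodes these were 6.86 ± 0.17 and 6.52 ± 0.18. Cells with at least 1000 UMIs were thinned to 1000, and cells with fewer were left out here and wherever thinning is named. After thinning, 75.5% of 196 endothelial-like cells of R1 and 85.3% of 163 of R2 had a Slc2a1 UMI, without shared barcodes. Over all 263 and 250 such cells unthinned, the shares were 75.3% and 81.6%. In border macrophage-like cells, the class taken to lack the gene, the shares were 0.526% of 380 and 0.969% of 413 thinned cells. Over all cells unthinned they were 2.25% and 2.96%, at median depths of 1453 and 1203.5 UMIs against 1463 and 1269 in the endothelial-like cells.

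Slc2a3 (GLUT3), the high-affinity glucose carrier best known from neurons, was near 0 in all these classes. Endothelial-like cells held 0 and 1 UMIs, 3 UMIs being worth 3.92 and 4.93 CPM there, and inner arachnoid, pial and perivascular and arachnoid barrier-like cells held 0 in both libraries. Border macrophage-like cells gave 2.14 and 1.32 CPM and dural border-like cells 3.49 and 5.43 CPM. These levels lie at or close to the detection limit of the class sums.

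The window around each start site from 250 bases before to 50 bases after is given for 4 carriers, from the RefSeq table (build GRCm38.p6), because Slc2a1, Slc38a5 and Mfsd2a were endothelial and Slc38a2 fibroblast in these data. Sequences run 5′ to 3′ along the gene's strand, and capitals mark ACGTG, the core of the hypoxia response element, on either strand. Slc2a1 lies on the plus strand at chr4:119108495-119108794, Slc38a5 on the plus strand at chrX:8271131-8271430, Mfsd2a on the minus strand at chr4:122961139-122961438 and Slc38a2 on the minus strand at chr15:96699679-96699978.
Slc2a1: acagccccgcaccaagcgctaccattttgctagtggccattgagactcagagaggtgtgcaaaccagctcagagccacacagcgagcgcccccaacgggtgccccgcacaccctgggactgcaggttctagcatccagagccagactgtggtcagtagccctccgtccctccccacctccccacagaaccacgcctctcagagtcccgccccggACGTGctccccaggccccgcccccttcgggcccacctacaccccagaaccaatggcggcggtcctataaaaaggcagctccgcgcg
Slc38a5: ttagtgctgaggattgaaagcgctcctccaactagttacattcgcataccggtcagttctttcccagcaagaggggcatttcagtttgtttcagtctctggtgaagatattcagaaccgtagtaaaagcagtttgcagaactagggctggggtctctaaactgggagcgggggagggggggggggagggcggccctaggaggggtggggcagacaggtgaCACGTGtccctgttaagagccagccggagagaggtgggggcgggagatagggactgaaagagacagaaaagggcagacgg
Mfsd2a: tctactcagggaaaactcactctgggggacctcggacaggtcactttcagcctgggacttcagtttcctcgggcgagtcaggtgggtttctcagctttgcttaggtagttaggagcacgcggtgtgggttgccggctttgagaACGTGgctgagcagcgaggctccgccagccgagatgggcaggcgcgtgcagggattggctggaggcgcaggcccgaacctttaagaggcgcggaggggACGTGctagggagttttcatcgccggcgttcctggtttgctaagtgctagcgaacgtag
Slc38a2: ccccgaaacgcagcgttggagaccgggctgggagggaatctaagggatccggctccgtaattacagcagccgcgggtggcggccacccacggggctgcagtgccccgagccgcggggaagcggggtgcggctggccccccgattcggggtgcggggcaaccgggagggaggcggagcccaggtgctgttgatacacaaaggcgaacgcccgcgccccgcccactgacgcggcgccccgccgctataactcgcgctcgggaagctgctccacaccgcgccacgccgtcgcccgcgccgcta
ACGTG was found in 1 place in Slc2a1 and 2 in Mfsd2a. In Slc38a5 the 2 matches overlap, as CACGTG, the E-box, holds ACGTG on both strands. The Slc38a2 window held no match. Of the 32851 windows of the table, 19.6% held the former motif and 7.15% the E-box. An ETS motif, spelled CCGGAAG (8.86% of windows), was searched on both strands and matched none of the 4 windows. The same holds for a form of the amino acid response element, spelled TGATGNAA (3.97% of windows). The table gave windows for 6 of the 10 carriers. Of those not printed, Slc7a1, also endothelial here, held no ACGTG in any of its windows. Slc29a1, highest in pial and perivascular cells and macrophages, held it in some of its windows (1, 1 and 2 matches) and not in others. Whether the motif goes with the cell class was not tested.

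Slc7a5, the light chain of the LAT1 exchanger for large neutral amino acids, was at 333.2 CPM in R1 and 289.4 CPM in R2 in endothelial-like cells, or 414.4 and 361.8 CPM without shared barcodes. The gene was at 20.8 and 7.60 CPM in microglia-like cells, at 4.89 and 6.79 CPM in the dural border and at 0 and 1.98 CPM in border macrophages. The endothelial values were far above those of every other class in the plot of levels by class, in both libraries. The log2 difference was 6.84 ± 0.29 against the fibroblast layers (adjusted p = 4.2e-49) and 5.96 ± 0.26 against the myeloid classes (adjusted p = 1.3e-47), and 7.06 ± 0.29 and 6.08 ± 0.26 without the shared barcodes. Slc3a2, its heavy chain partner, singled out here with its values known, was higher in endothelial-like cells than in myeloid cells by 1.02 on the log2 scale and than in the layers by 0.49.

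Slc7a1 (CAT1), the carrier of arginine and lysine, was at 371.1 and 226.9 CPM in endothelial-like cells (441.0 and 263.1 without shared barcodes). Dural border-like cells came next at 63.6 and 58.4 CPM, with arachnoid barrier-like cells at 48.3 and 49.9 CPM on 3 UMIs each. Macrophages held 5.0 and 3.30 CPM, so the myeloid classes were lowest in both libraries. The endothelial level was higher by 3.71 ± 0.20 than in the layers and by 5.89 ± 0.25 than in the myeloid classes (adjusted p = 9.2e-38 and 1.1e-48), or 3.86 ± 0.21 and 5.92 ± 0.26 without the shared barcodes. The layers were higher than the myeloid classes by 2.18 ± 0.44 (adjusted p = 8.0e-06). That last difference was 0.15 (adjusted p = 0.84) when cells were thinned to 1000 UMIs.

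Slc38a5 (SNAT5), an exchanger of glutamine, histidine and serine with protons, was at 539.6 and 647.8 CPM in endothelial-like cells and at 451.6 and 592.0 CPM without shared barcodes. Border macrophage-like and inner arachnoid cells had no UMI in either library. Arachnoid barrier-like cells gave 144.8 CPM on 9 UMIs in R1, above the other layers, and 33.3 CPM on 2 UMIs in R2, which is under the floor of 3 UMIs. The log2 difference was 9.11 ± 0.28 against the layers (adjusted p = 8.9e-65) and 10.12 ± 0.31 against the myeloid classes (adjusted p = 1.6e-64), or 8.80 ± 0.30 and 9.75 ± 0.34 without the shared barcodes. The myeloid sums held 1 UMI in R1 and 0 in R2, so those fitted values are no bounds. The ratio of summed counts was 1066 in R1 (95% counting interval 190.3 to 42204.1). In R2 the endothelial level was 384.2 times the floor of 3 UMIs, and the counting interval of the ratio began at 311.0.

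Slc38a3 (SNAT3), a sodium-coupled glutamine carrier, was shared between vessels and the inner fibroblast layers. Endothelial-like cells gave 179.0 and 148.0 CPM (193.0 and 161.9 without shared barcodes), pial and perivascular cells 332.4 and 259.3 CPM and inner arachnoid cells 152.1 and 114.0 CPM. Dural border-like cells gave 5.59 and 5.43 CPM, close to the 7.86 and 5.94 CPM of border macrophage-like cells, the class taken to lack it. The pial level was above the endothelial level in both libraries, and the dural border level was at the macrophage background. Because the dural border pulls the mean of the layers down, endothelial-like cells were higher than the layers by 1.47 ± 0.19 (adjusted p = 1.4e-11), or 1.5 ± 0.20 without the shared barcodes. Against the myeloid classes the endothelial difference was 5.13 ± 0.29 (5.04 ± 0.31 without the shared barcodes) and that of the layers 3.66 ± 0.39 (adjusted p = 1.2e-35 and 1.4e-15).

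Slc38a2 (SNAT2), a sodium-coupled carrier of alanine, glutamine and other small neutral amino acids, was higher in fibroblasts than in vessels or myeloid cells. It was at 11929 and 12650.5 CPM in dural border-like cells (mean 12289.8 ± 510.1, SD, n = 2), at 2214 and 2806 CPM in inner arachnoid cells, and at 1760 and 2195 CPM in pial and perivascular cells. Arachnoid barrier-like cells gave 1207 and 3646 CPM. Endothelial-like cells gave 527.9 and 481.8 CPM (657.0 and 617.3 without shared barcodes), microglia-like cells 472.2 and 391.5 CPM and border macrophage-like cells 363.0 and 333.1 CPM. Every fibroblast layer was above every endothelial and myeloid class in both libraries. The endothelial difference from the layers was -2.93 ± 0.14 on the log2 scale (adjusted p = 1.2e-42), or -2.68 ± 0.15 without the shared barcodes. The layers were 3.13 ± 0.11 higher than the myeloid classes (adjusted p = 1.5e-59).

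After thinning, 522 of 522 dural border-like cells of R1 and 99.6% of those of R2 had a Slc38a2 UMI (99.8% and 305 of 305 unthinned), against 22.6% and 27.4% of border macrophage-like cells (40.5% and 42.3% unthinned). The median depths were 2327 and 2142 UMIs against 1453 and 1203.5, and none of these classes is taken to lack the gene. The endothelial difference from the myeloid classes was 0.21 (adjusted p = 0.20) and did not pass, and it was 0.34 ± 0.14 (adjusted p = 0.029) and passed without the shared barcodes.

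Slc1a5 (ASCT2), an exchanger of alanine, serine, cysteine and glutamine, was also higher in the fibroblast layers than in vessels, mostly in pial and perivascular cells. Pial and perivascular cells gave 180.4 and 143.5 CPM, inner arachnoid cells 35.4 and 69.2 CPM and dural border-like cells 21.0 and 25.8 CPM. Endothelial-like cells gave 3.92 and 11.5 CPM on 3 and 7 UMIs (3.54 and 12.7 CPM without shared barcodes). The pial level was the highest in both libraries, and the endothelial level did not stand apart from the 10.7 and 9.23 CPM of border macrophage-like cells. The endothelial difference from the layers was -2.93 ± 0.39 (adjusted p = 4.2e-11), or -3.01 ± 0.44 without the shared barcodes. The layers were higher than the myeloid classes by 3.04 ± 0.33 (adjusted p = 4.3e-15).

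Slc29a1 (ENT1) is the equilibrative nucleoside carrier through which adenosine crosses membranes. It was at 190.7 and 226.9 CPM in pial and perivascular cells, 147.9 and 186.7 CPM in border macrophage-like cells and 86.8 and 125.4 CPM in microglia-like cells. Endothelial-like cells gave 43.1 and 34.5 CPM (49.6 and 43.0 without shared barcodes), and inner arachnoid cells 3.54 and 24.4 CPM. Dural border-like cells were at 2.10 and 6.79 CPM, and arachnoid barrier-like cells held no UMI, with 3 UMIs worth 48.3 and 49.9 CPM. Pial cells and macrophages were thus above vessels in both libraries, and dural border-like cells were below them. Inner arachnoid cells, on 1 and 6 UMIs, had lower values than vessels. In R2 their Poisson interval (8.97 to 53.2 CPM) overlapped that of endothelial-like cells (21.4 to 52.8 CPM). The barrier cells cannot be placed at this depth.

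The endothelial difference of Slc29a1 from the myeloid classes was -1.89 ± 0.22 (adjusted p = 2.5e-13), or -1.83 ± 0.24 without the shared barcodes. The layers as a mean of logs were also lower than the myeloid classes, by -2.74 ± 0.22 (adjusted p = 1.6e-23), although the pial level was above the macrophage level in both libraries. Against the layers the endothelial difference of 0.86 did not pass, since the libraries differed in sign (1.33 in R1 and -0.04 in R2). It passed without the shared barcodes, at 1.03 ± 0.33 (adjusted p = 0.0083), and in 5 other alternatives, the largest value being 2.39 with classes from 20 cells.

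Mfsd2a, the lysophospholipid carrier, was at 142.4 and 111.8 CPM in endothelial-like cells (145.2 and 101.2 without shared barcodes). Pial and perivascular, inner arachnoid, arachnoid barrier-like and microglia-like cells held no Mfsd2a UMI in either library. Dural border-like cells held 1 UMI in each library and border macrophage-like cells 0 and 2. The fitted log2 difference was 8.63 ± 0.52 against the layers (adjusted p = 3.0e-33) and 8.25 ± 0.50 against the myeloid classes (adjusted p = 5.5e-33), or 8.45 ± 0.58 and 8.0 ± 0.57 without the shared barcodes. With counts this low the fitted values are no bounds. The ratio of summed counts against the layers, without shared barcodes, was 305.3 in R1 (95% counting interval 53.3 to 12202.3) and 121.2 in R2 (20.5 to 4905.7).

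**Figure D2:**
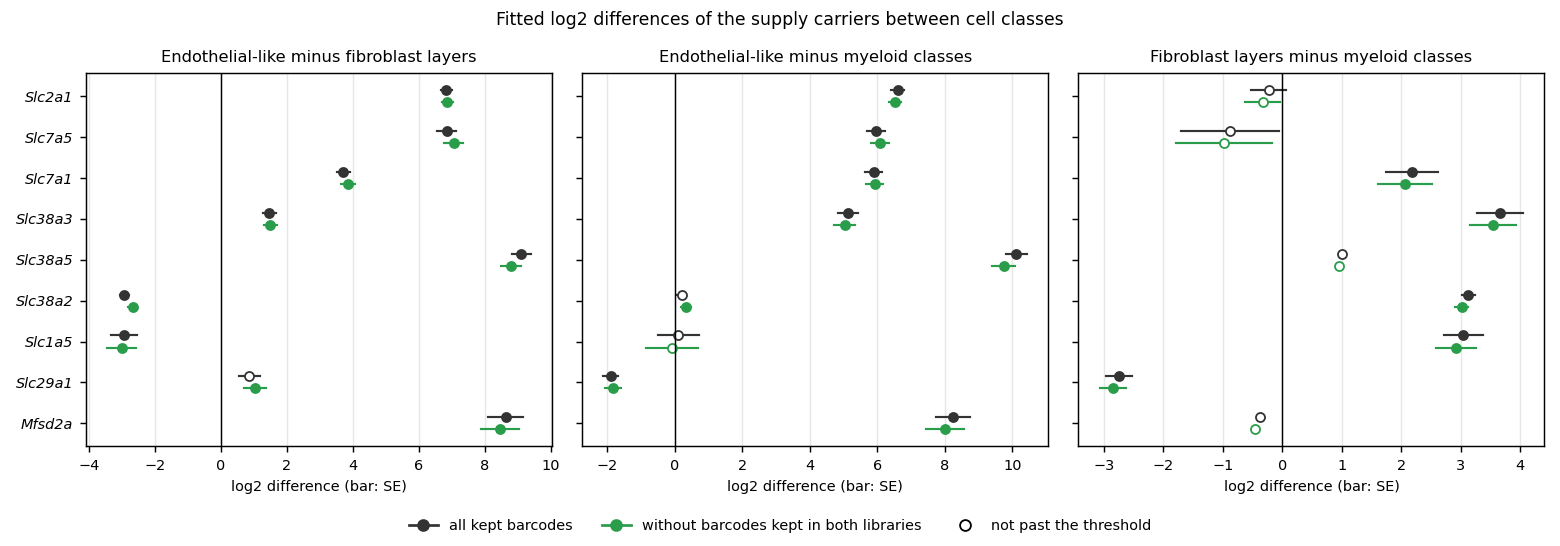
Fitted log2 differences (points) with their standard errors (bars, left out where above 3) for 9 carriers in 3 comparisons of cell classes, with all kept barcodes and without the barcodes kept in both libraries. Filled points passed. Slc38a5 and Mfsd2a lie above 8 in the first panel, Slc38a2 and Slc1a5 below 0, and removing the shared barcodes moves Slc29a1 past the threshold there.

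Among the endothelial branches, Slc38a5, Slc38a3, Mfsd2a, Slc7a5 and Slc7a1 were higher in capillary-like than in arterial-like cells, Slc38a2 was lower, and Slc2a1 did not pass. The capillary-like cells (189 and 172 without shared barcodes) and arterial-like cells (74 and 78) were compared with each other. With all kept barcodes this fit held 3 branches, so the venous-like sums of both libraries entered its estimate of the spread. Of 7 carriers tested, 5 were higher in capillary-like cells, 1 was lower and 1 did not pass. Over all 4479 genes 14.9% passed, 6.9% as higher and 7.97% as lower. Without the shared barcodes, where 15.5% of 4434 genes were called in either direction, these 7 carriers had the same calls, and Slc29a1, tested only there, did not pass (-0.32, adjusted p = 0.79).

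Slc2a1 was at 1530.1 and 3053 CPM in capillary-like cells and at 1387 and 2338 CPM in arterial-like cells, both without shared barcodes, and at 1397 and 1688 CPM in the venous-like cells of the 2 libraries, which carry the same barcodes. The ranges of the branches overlapped, and within R2 the capillary-like level was 1.31 times the arterial-like one (95% counting interval 1.13 to 1.52), against 1.1 times in R1 (0.922 to 1.33). The capillary difference was 0.27 (adjusted p = 0.34), and 0.24 (adjusted p = 0.48) without the shared barcodes, so neither passed.

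Slc38a5 was at 554.2 and 786.0 CPM in capillary-like cells and no UMI in arterial-like cells of either library. The capillary level was 19.3 times the floor of 3 UMIs in R1 and 25.5 times that floor in R2. These values are no lower limits of the ratio. The Poisson intervals of arterial-like cells without shared barcodes reached 35.3 CPM in R1 and 37.8 CPM in R2, above the floor. Venous-like cells gave 826.5 and 805.2 CPM. Its log2 difference passed with and without the shared barcodes (adjusted p = 7.6e-08 and 3.6e-35).

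Mfsd2a was at 176.0 and 134.4 CPM in capillary-like cells and on 1 and 0 UMIs in arterial-like cells. The ratio was 18.4 in R1 (3.21 to 736.0). In R2 the capillary level was 4.37 times the floor of 3 UMIs (interval of the ratio from 3.39 upwards). Slc38a3 followed the same order, with 236.9 and 211.6 CPM against 0 and 1 UMIs. It was 8.26 times the floor in R1 (interval of the ratio from 6.6 upwards), and the ratio in R2 was 20.6 (3.57 to 827.8). In venous-like cells Mfsd2a was at 146.8 and 140.3 CPM and Slc38a3 at 152.2 and 124.7 CPM, on the capillary side for both.

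Slc7a5 was at 506.4 and 460.2 CPM in capillary-like cells and at 9.56 and 61.5 CPM in arterial-like cells, on 1 and 6 UMIs there. The log2 difference was 3.76 ± 0.40 without the shared barcodes and 3.89 ± 0.39 with them (adjusted p = 7.3e-19 and 3.3e-06). The libraries differed in its size: without the shared barcodes it was 4.85 in R1 and 2.68 in R2. The ratios of summed counts were 53.0 (9.41 to 2100.4) and 7.48 (3.35 to 20.7). Slc7a1 was at 512.9 and 322.4 CPM against 124.3 and 82.0 CPM, a difference of 1.99 ± 0.32 without and 1.93 ± 0.25 with the shared barcodes (adjusted p = 1.6e-08 and 4.3e-05). Venous-like cells were between the branches for both, with 108.7 and 161.0 CPM of Slc7a5 and 179.4 and 155.8 CPM of Slc7a1.

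Slc38a2 went the other way, with 543.4 and 597.9 CPM in capillary-like and 1157 and 676.8 CPM in arterial-like cells, whose marker sum of the dural border list was 13446 and 14880 CPM against 1456 and 2056 CPM in capillary-like cells. The part of that list in the Slc38a2 difference was not tested. The difference of -0.62 ± 0.20 passed narrowly (adjusted p = 0.049), and -0.70 ± 0.21 passed without the shared barcodes (adjusted p = 0.0070). It was lost with DESeq2 (-0.66, adjusted p = 0.51), without the filter on low counts (-0.48, adjusted p = 0.11), without the library block (-0.62, adjusted p = 0.069) and with at most 5% mitochondrial UMIs (-0.12, adjusted p = 0.81). Venous-like cells had the lowest values, 163.1 and 213.0 CPM.

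Mural markers were higher in capillary-like cells (2356 and 1716 CPM) and venous-like cells (2583 and 2717 CPM) than in arterial-like cells (669.4 and 471.7 CPM), and the venous-like cluster was led by stress and early response genes such as Fos, Jun and Hspa1a. Their part in these differences was not tested.

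**Figure D3:**
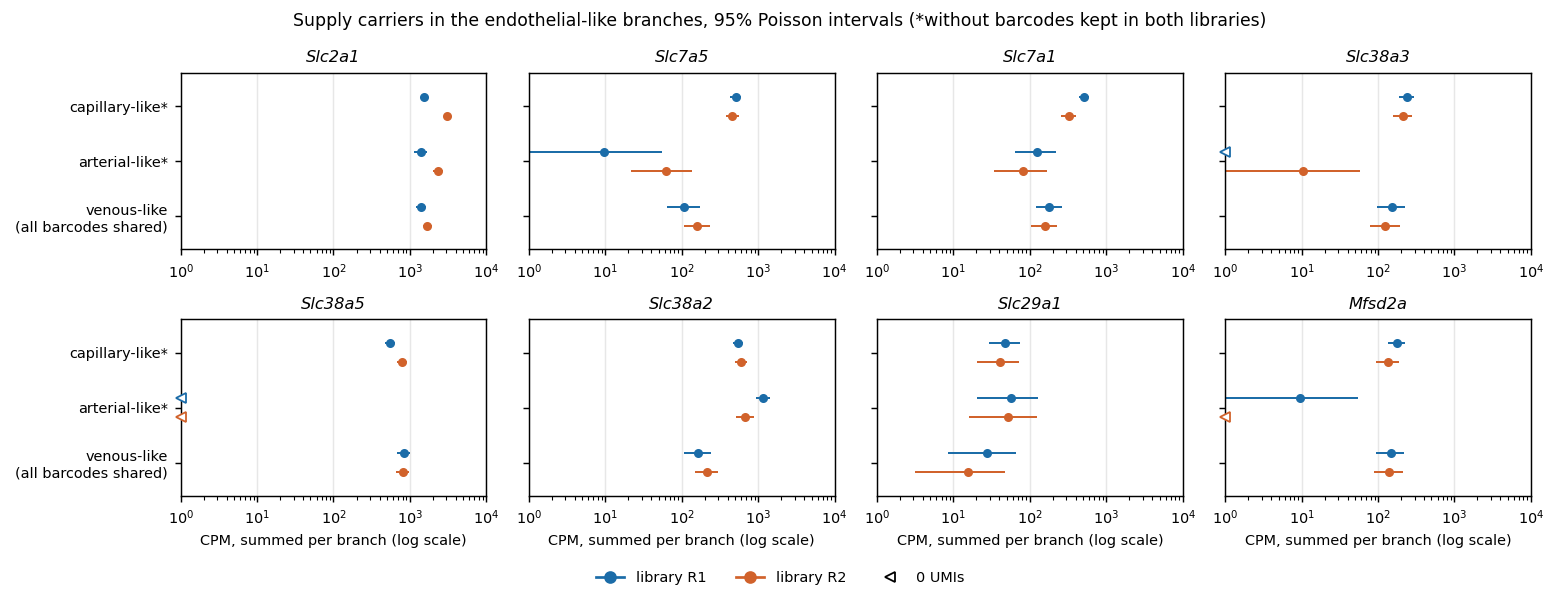
Levels of 8 carriers in CPM (log axis) in capillary-like and arterial-like cells without shared barcodes and in the venous-like cells, whose 2 points come from the same barcodes, with 95% Poisson intervals. Open triangles mark 0 UMIs. Slc2a1 is above 1000 CPM in all branches, and Slc38a5 has no UMI in arterial-like cells.

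The fibroblast layers differed from each other in 5 carriers that could be tested. Among the pial and perivascular, inner arachnoid and dural border layers, Slc29a1, Slc38a3 and Slc1a5 were highest in the first and Slc38a2 and Slc7a1 in the last. Inner arachnoid cells had more Slc38a3 than the mean of the other layers. For Slc7a1 the arachnoid barrier-like cells, not in this fit, gave 48.3 and 49.9 CPM, with Poisson intervals that overlapped those of dural border-like cells. Pial and perivascular cells had 3 of 5 carriers higher and 1 lower than the other layers (16.2% of 6934 genes passed, 9.59% higher and 6.59% lower). Inner arachnoid cells had 1 higher and 1 lower (14.5% of genes, 7.92% and 6.62%), and dural border-like cells 2 higher and 3 lower (29.5% of genes, 15.9% and 13.7%). The sums of these layers were unchanged without the shared barcodes, so that setting is no further check of these differences.

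In pial and perivascular cells Slc29a1 was 4.8 ± 0.32 higher than in inner arachnoid and dural border-like cells (adjusted p = 2.3e-47), Slc38a3 was 3.42 ± 0.22 higher (adjusted p = 1.9e-48) and Slc1a5 2.25 ± 0.25 higher (adjusted p = 5.7e-17). Slc38a2 fell by 1.52 ± 0.16 there (adjusted p = 1.6e-19). The per-library levels behind these differences did not overlap between the pial cells and either other layer for any of the 4 genes. For Slc38a2 the gap was small: the pial level in R2 was 2195 CPM, against 2214 CPM in inner arachnoid cells of R1. The mean of the other layers was set by the high dural border there, at 11929 and 12650.5 CPM. Mural markers, which were highest in this layer, were at 3194 and 1703 CPM in inner arachnoid cells and 241.8 and 285.3 CPM in dural border-like cells. Mural-like cells themselves gave 97.9 and 119.7 CPM of Slc29a1 and 14.0 and 17.1 CPM of Slc38a3, both below the pial level.

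In inner arachnoid cells Slc38a3 was 2.0 ± 0.28 higher than in the mean of the other layers (adjusted p = 3.0e-11), a mean set by the low dural border, since the pial level was higher still. The difference of Slc38a2 was -0.70 ± 0.15 (adjusted p = 0.00011). That call was lost when unnamed fibroblast-like clusters joined the fit (-0.06, adjusted p = 0.77) and when classes from 20 cells did (-0.30, adjusted p = 0.36).

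Dural border-like cells had 2.22 ± 0.14 more Slc38a2 (adjusted p = 9.3e-53) and 1.78 ± 0.35 more Slc7a1 (adjusted p = 4.0e-06) on the log2 scale. Their 2 clusters gave 11027 and 10479.5 CPM, and 13974 and 15843 CPM, of Slc38a2. Slc38a3 was lower by -5.42 ± 0.29, Slc29a1 by -3.94 ± 0.59 and Slc1a5 by -2.26 ± 0.29 (adjusted p = 2.0e-71, 3.9e-10 and 9.0e-14). The last 2 calls were lost with classes from 20 cells, which adds the arachnoid barrier to the other layers (-1.36, adjusted p = 0.98, and -1.34, adjusted p = 0.067), and that of Slc1a5 also with the unnamed clusters (-0.59, adjusted p = 0.17).

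**Figure D4:**
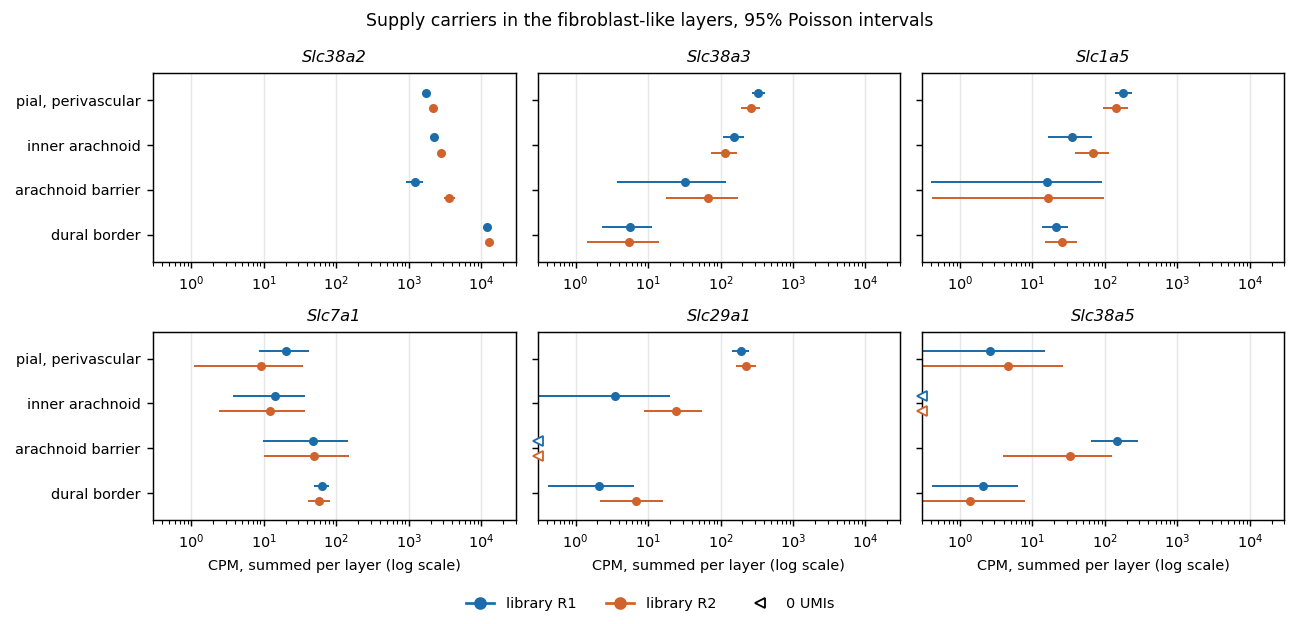
Levels of 6 carriers in CPM (log axis) in the 4 fibroblast-like layers, 1 point per library with its 95% Poisson interval, open triangles for 0 UMIs. Slc38a2 is highest in dural border-like cells, Slc38a3, Slc1a5 and Slc29a1 in pial and perivascular cells, and Slc38a5 is above the other layers in the arachnoid barrier-like cells of R1, while R2 rests on 2 UMIs there.

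Arachnoid barrier-like cells, the epithelium-like sheet that seals the leptomeninges from the dura, had lower levels of most carriers than the vessels. Against endothelial-like cells 7 of 9 carriers were lower, 1 was higher and 1 did not pass (21.0% of 9707 genes passed, 13% lower and 7.96% higher, and 16.5% passed without the shared barcodes). Slc2a1 rested on 1 and 0 UMIs in the barrier cells, a ratio of 0.0109 in R1 (0.000275 to 0.0606). In R2 the endothelial level was 49.4 times the floor of 3 UMIs in the barrier cells, and the upper limit of the ratio was 0.0249. Slc7a5 was on 0 UMIs in both, with upper limits of the ratio of 0.179 and 0.214, and Mfsd2a likewise, with 0.424 and 0.564. Slc38a5 was lower by -3.03 ± 0.34, Slc7a1 by -2.91 ± 0.46 and Slc38a3 by -2.04 ± 0.51 (adjusted p = 8.0e-17, 5.8e-09 and 0.00068), and -2.76 ± 0.39, -3.06 ± 0.48 and -2.08 ± 0.53 without the shared barcodes.

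Slc38a2 was 1.91 ± 0.28 higher in the barrier cells (adjusted p = 5.1e-10) and 1.65 ± 0.29 higher without the shared barcodes. Its level in R2 was well above that in R1. Slc29a1 passed as lower (adjusted p = 0.010), but its 0 UMIs allow more than the endothelial level, so no fold is given. With DESeq2 the calls of Slc29a1 and Mfsd2a were lost (adjusted p = 0.055 and 0.18), and that of Slc29a1 also when cells were thinned (adjusted p = 0.065). Compared with the other layers, only Slc38a2 of 5 carriers passed, as lower by -0.98 ± 0.21 (adjusted p = 0.00095). Of 6352 genes 6.58% passed there, 4.14% higher and 2.44% lower. It was -0.90 (adjusted p = 0.079) without the library block, and -0.55 (adjusted p = 0.024, signs differing between libraries) with the unnamed clusters in the fit.

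Between the myeloid classes 3 carriers differed, each on a call that some alternative ended. Of 9 carriers, Slc2a1 and Slc7a5 were higher in microglia-like than in border macrophage-like cells and Slc29a1 was lower (20.9% of 10607 genes passed, 9.82% higher and 11.1% lower). Slc2a1, at 24.3 and 30.4 CPM against 9.29 and 13.2 CPM, differed by 1.25 ± 0.41 (adjusted p = 0.016). The difference stayed between 1.06 and 1.24 but did not pass with DESeq2 (adjusted p = 0.10), without the filter on low counts (0.069), without the library block (0.088), with thinning (0.52) and with classes from 20 cells (0.052). Barcodes with fewer than 400 genes gave 36.7 and 50.5 CPM of Slc2a1 when UMIs of erythroid genes were left out of the total, above the microglia-like level.

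Slc7a5 differed by 3.73 ± 0.76 (adjusted p = 3.2e-05), and by 3.27 with thinning, which did not pass (adjusted p = 0.076). The difference was 3.16 in R1 and 1.09 in R2, and it rested on 12 and 2 UMIs in microglia-like cells and on 0 and 3 in border macrophage-like cells. Slc29a1 was lower in microglia-like cells by -0.75 ± 0.21 (adjusted p = 0.0030), a call lost with DESeq2 (-0.73, adjusted p = 0.11) and with thinning (-0.68, adjusted p = 0.22). Border macrophage-like cells formed 2 clusters. Slc29a1 was at 177.1 and 222.6 CPM in the cluster where 85.4% and 90.3% of cells had at least 1% of their UMIs from the nuclear RNA Malat1, and at 99.2 and 134.4 CPM in the other, where 4.0% and 2.94% did.

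Of 50 related carrier and hexokinase genes listed alongside, 30 had enough counts to be tested between classes. In endothelial-like cells 7 were higher and 13 lower than in the fibroblast layers, where 26.0% and 21.6% of all genes were. Against the myeloid classes 6 were higher and 11 lower, where 23.5% and 19.8% of all genes were. Slc1a1, a carrier of glutamate and cysteine, was at 69.3 and 59.2 CPM in endothelial-like cells against 0.233 and 0 CPM in the layers and 0 in the myeloid classes (adjusted p = 4.4e-20 and 9.3e-21). Spns2, which exports sphingosine 1-phosphate, was at 40.5 and 65.8 CPM against 1.09 and 0 CPM in the layers. Slc7a2, a second cationic amino acid carrier, was lower in endothelial-like cells by -3.46 ± 0.20 (32.7 and 31.2 CPM against 422.4 and 376.3). Slc1a1 was also at 85.8 and 71.8 CPM in capillary-like cells and at 0 in arterial-like cells, and Slc50a1 and Slc45a4 were lower in capillary-like than in arterial-like cells (-1.27 ± 0.20 and -2.52 ± 0.52).

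Between the layers and the myeloid classes 15 of the 30 were higher in the layers and 9 lower. The fructose carrier Slc2a5 was at 206.6 and 133.0 CPM in microglia-like cells, 5.97 ± 0.38 above border macrophage-like cells, and the glutamate carrier Slc1a3 was 1.62 ± 0.21 higher and Slc43a2 lower by -1.65 ± 0.26 there. Hk2, a hexokinase, and Slc7a8, a light chain of neutral amino acid exchange, were myeloid genes: they were lower in the layers by -4.56 ± 0.20 and -4.8 ± 0.28 and in endothelial-like cells by -6.10 ± 0.33 and -5.46 ± 0.39. In that comparison of myeloid classes 9 were higher in microglia-like cells and 3 lower.

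Among the layers 19 of the 50 were tested, and 5 were higher and 1 lower in pial and perivascular cells, 4 and 4 in inner arachnoid cells and 2 and 6 in dural border-like cells. Slc1a3 was 2.26 ± 0.15 higher in pial and perivascular cells and 2.34 ± 0.15 higher in inner arachnoid cells, and -4.61 ± 0.18 in dural border-like cells. The glutamine carrier Slc38a1, like Slc38a2, was higher in dural border-like cells, at 711.3 and 842.2 CPM against a mean of 54.1 and 94.9 CPM in the other layers (3.17 ± 0.17), and lower in pial and perivascular cells (-1.90 ± 0.26). Slc3a2 was 1.95 ± 0.14 higher in pial and perivascular cells, and Slc2a12 was 2.96 ± 0.45 higher and Slc38a6 -1.76 ± 0.37 in inner arachnoid cells. Slc36a1 was -1.36 ± 0.32 in dural border-like cells. In arachnoid barrier-like cells Slc50a1 was -1.85 ± 0.48, Slc3a2 -1.74 ± 0.34 and Slc1a3 -0.93 ± 0.29 against the other layers, with 0 of 17 higher and 3 lower, while Slc1a1, Spns2 and Slc50a1 were lower than in endothelial-like cells (Slc50a1 by -2.93 ± 0.49).

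The genes whose levels ran most alike over the sums of 10 classes in both libraries (20 sums, log2 of CPM plus 10) were Ly6c1, Cldn5 and Vwf for Slc2a1 (Pearson r 0.955, 0.948 and 0.946) and Slc1a1, Scgb3a1 and Prrt4 for Mfsd2a (0.998 each). Slc38a5 was nearest to Robo4, Scarf1 and Lcn2 (0.914, 0.901 and 0.899), Slc7a5 to Tmtc2, Rnf125 and Ly75 (0.940, 0.929 and 0.926) and Slc7a1 to Dnm3, Atp10a and S100a16 (0.941, 0.910 and 0.910). Slc38a3 ran with Edn3, Plekhg1 and Cthrc1 (0.965, 0.95 and 0.936), and Slc38a2 with Aox1, Slc23a2 and Vps13a (0.955, 0.940 and 0.932). Likeness was lower for Slc1a5 (Baiap3, Sidt1 and Fhl2, 0.851, 0.802 and 0.789) and Slc29a1 (Litaf, Aagab and Zeb2, 0.827, 0.817 and 0.808). Slc2a3, at 37.2 CPM or less in these sums, was nearest to Rab37, Ltb4r1 and Cd5 (0.951, 0.946 and 0.944). The sums share libraries and depth, and 8770 genes were compared, so these are descriptions.

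In the GENCODE annotation of GRCm38, the 10 genes lie on 9 chromosomes. Slc2a1 is on chromosome 4 from 119108711 to 119137983, Mfsd2a on chromosome 4 from 122946850 to 122961188, Slc38a2 on chromosome 15 from 96687392 to 96699730 and Slc38a5 on chromosome X from 8271133 to 8280179. Counts of genes that overlap another gene are uncertain where reads could be assigned to either: Slc2a1 overlaps Mir1957a, Gm12867 and Gm12868, Slc2a3 overlaps Gm4482, Slc7a5 overlaps Gm20388 and Slc29a1 overlaps Gm17080.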

How the data were processed

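The authors deposited, for each library, a matrix of raw UMI counts (genes by barcodes, written by Cell Ranger 4.0.0 according to the matrix header, so per the file headers not normalized), and tables of other content (gene names and cell barcodes) in matrix order. The genome build was mm10 (GRCm38) per the submitters' processing notes. Whether counting used strand is not given in the sources used here. At most 5000 cells per sample were aimed for, per the labels.

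Barcodes were kept from 400 detected genes upwards where mitochondrial UMIs made up no more than 10%. They were clustered with scanpy 1.11.5 (Python 3.11.15, 2000 variable genes without the 10 carriers and the 50 related genes, 30 principal components, 15 neighbours, Leiden resolution 1.0 and 0.8 within fibroblast cells). The endothelial branches are clusters of the first round, named again from branch markers. Clusters were named where the marker score was at least 1 and led by 0.5, limits chosen after the clusters were seen. Scrublet called and removed 3 cells in each library, too few for it to have worked, so doublets remain. Counts were summed per library and class and fitted with edgeR 4.0.16 in R 4.3.3 (TMM, filterByExpr), for classes of at least 50 cells in each library. The arachnoid barrier was fitted with a limit of 20 cells, chosen after its size was seen. All classes of a library come from that library, so the library was a block. Fits were tested on simulated data. CPM intervals are exact Poisson intervals at 95% and cover counting error only, and the floor is 3 UMIs.

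The carriers and lists were chosen with earlier results of these data known. All 10 carriers are named. Of the 50 related genes, up to 3 per comparison are named, those with the largest log2 difference among genes that passed and reached 50 CPM on the higher side. For each carrier the 3 genes most alike are named. Alternatives were DESeq2 1.42.0, no filter on low counts, no block, other cell filters, thinning to 1000 UMIs, Leiden resolution 1.5, unnamed fibroblast clusters in the fit, each library left out, and, added after seeing the data, classes from 20 cells and no shared barcodes.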

Additional observations from a re-analysis of the deposited data

How the results depend on the processing

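The 93 carrier results were recomputed under up to 12 settings other than leaving out a library, as not every setting gives every comparison. These results include tests of the venous-like branch, which rest on shared barcodes and are not relied on. Venous-like cells are also among the others in the capillary-like and arterial-like branch comparisons. Of 933 values, 896 kept their direction and their side of the threshold, 25 no longer passed, 12 newly passed and none reversed. Those of the fibroblast layers against each other without the shared barcodes are included, though their sums were unchanged and they add no check. The calls that ended are given beside their results, except 2 in comparisons of 1 endothelial branch with the others: Mfsd2a in capillary-like cells with DESeq2 (2.37, adjusted p = 0.081) and Slc7a1 in arterial-like cells with thinning (-1.01, adjusted p = 0.06). The cause was not tested. Without the library as a replicate block, 90 of 93 carrier values had the same call, and the counts of genes called were 4819 for endothelial-like cells against the fibroblast layers (5044 with it), 4379 against the myeloid classes and 622 for capillary-like against arterial-like cells.

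Counts of genes called moved by over 1.5 times in these settings. Thinning to 1000 UMIs gave 2608 for endothelial-like cells against the layers, 2515 against the myeloid classes (4597), 3694 for layers against myeloid classes (6773), 925 for microglia-like against border macrophage-like cells (2217) and 936 for the arachnoid barrier against endothelial-like cells (2039). It gave 508 for pial and perivascular cells (1122), 320 for inner arachnoid (1008), 865 for dural border (2048) and 189 for arachnoid barrier (418) against other layers. Among endothelial branches it gave 393 for capillary-like (1111), 854 for venous-like (2446) and 582 for arterial-like cells (1595) against the others, and 283 for capillary-like against arterial-like cells (666). DESeq2 gave 1254 for the myeloid comparison, 536, 376, 991 and 270 for the 4 layers in the same order, 221, 1105 and 658 for the 3 branches, and 261 for capillary-like against arterial-like cells. With at most 5% mitochondrial UMIs the counts were 640, 509 and 1251 for the first 3 layers and 1015 for the arterial-like branch. With unnamed fibroblast clusters in the fit they were 2455, 1918, 3433 and 913 for the 4 layers. The venous-like branch counts rest on shared barcodes and are not relied on.

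The arachnoid barrier had too few cells for a value with at most 5% mitochondrial UMIs, Leiden resolution 1.5 gave no comparison of branches, and no venous comparison was possible without shared barcodes. With 1 library left out no test is possible. Levels under 3 UMIs per sum cannot be told from 0, which limits Slc2a3 throughout and most carriers in the arachnoid barrier.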

Other observations

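Outside the classes compared above, Slc2a3 was found in neutrophil-like cells, at 149.5 CPM on 15 UMIs in R1 and 143.4 CPM on 8 UMIs in R2, from 10 cells in each library. T or NK-like cells gave 37.2 and 27.5 CPM of Slc2a3 and 66.9 and 79.1 CPM of Slc1a5. Both carriers were thus seen in blood-derived classes too small for the comparisons.

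Clusters left without a name also held Slc38a2. An unnamed cluster of 34 and 53 cells gave 4032 and 5150 CPM of Slc38a2, 202.9 and 265.8 CPM of Slc38a3 and 88.2 and 80.4 CPM of Slc1a5. The largest unnamed fibroblast-like cluster, of 343 and 616 cells, gave 3138 and 2803 CPM of Slc38a2, and another, of 149 and 338 cells, gave 963.0 and 986.7 CPM. These Slc38a2 levels lie below that of dural border-like cells.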
